A study of Mus musculus with 14 samples.

Results

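The genes described here are 28 genes of cholesterol synthesis and of its master regulator SREBP2, in mouse macrophages depleted of Wdr82. They were chosen by name from pathway knowledge, with earlier results of these data known, so shares of members beside all genes are descriptive. Matched by gene identifier to the deposited count files, all 28 were found among 21761 genes. They comprise 6 genes of SREBP2 and its control, 6 of the mevalonate steps, 3 at the prenyl branch point, 3 from squalene to lanosterol, 9 from lanosterol to cholesterol and 1 sterol transport gene. Of these, 27 passed the filter on low counts and were tested. The remaining gene, Hmgcs1, had between 0 and 2 exon counts in each library.

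The cells were macrophages grown for 7 days from bone marrow of FVB/Hsd mice with L929-conditioned medium, infected with retroviruses that carry a short hairpin RNA, and selected with puromycin. The 4 libraries used are ribosomal RNA-depleted total RNA from untreated cells: scrambled 1 and scrambled 2, which carry a scrambled hairpin, and sh1137 and sh830, which carry different hairpins against Wdr82 with 1 library each. Infection and selection were thus shared by all 4 libraries. Wdr82 belongs to the SET1 complexes, which methylate histone H3, and to a PP1 phosphatase complex. The other 10 of the 14 samples of the series, which include all samples of newly made RNA, of lipopolysaccharide treatment and of the Menin hairpin, were not analysed here.

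Cholesterol is built from acetyl-CoA through mevalonate, the isoprenoid farnesyl diphosphate, squalene and lanosterol. SREBP2, encoded by Srebf2, is a transcription factor held in the endoplasmic reticulum membrane. When sterols are low, Scap escorts it to the Golgi, the proteases encoded by Mbtps1 and Mbtps2 release its active part, and the genes of the synthesis enzymes are transcribed. When sterols are plentiful, Insig1 and Insig2 retain Scap in the endoplasmic reticulum. In macrophages this arm works opposite to cholesterol efflux, which liver X receptors (LXR) switch on.

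Gene exon counts totalled 34787556 to 43372731 per library. Introns took 40.4% of exon plus intron counts in scrambled 1 and 44.2% in sh1137, against 14.6% in scrambled 2 and 15.2% in sh830. This split is crossed with the groups, so each kind of library holds 1 scrambled and 1 hairpin library. Tests are from edgeR's quasi-likelihood fit with Benjamini-Hochberg adjustment over all genes and regions. The fit holds a group term and a library term, which codes this split, and leaves 1 residual degree of freedom. The library term, too, was chosen with earlier results of these data known. A gene is said to have risen or fallen only where its adjusted p in this fit was under 0.05. With the group term alone 0 genes passed in exons, and at an unadjusted p under 0.05 there were 437 higher and 209 lower changes. DESeq2 with that design passed 153 higher and 23 lower. Nothing in the labels says that the libraries come from separate mice or cultures, so p-values do not measure the spread between mice or cultures. They rest on the spread between these libraries and on spread values shared across genes. Exon levels are exon counts per 1000000 gene exon counts of the library, scaled with TMM factors (CPM). Intron levels are intron counts per 1000000 intron counts of the library, with TMM factors of their own, also written CPM. Exon and intron CPM of a gene are therefore not on 1 scale and do not compare amounts. Changes are log2 hairpin over scrambled ± SE.

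Wdr82 had 100 and 144 CPM in scrambled 1 and 2 and 25.1 and 40.7 CPM in sh1137 and sh830. Its change was -1.91 (edgeR, adjusted p = 0.0022, n = 2 against 2), and -1.89 with the group term alone (adjusted p = 0.44). All 8 macrophage markers, among them Csf1r and Lyz2, were present, with a summed level of 8598 to 15166 CPM; of these Cd68 (-0.94, adjusted p = 0.0085) and Fcgr1 (-1.51, adjusted p = 0.0031) fell. The 8 fibroblast markers summed to 9.66 and 42.7 CPM in the controls against 44.2 and 147 CPM in sh1137 and sh830. Pdgfrb rose and alone gave 42.3 CPM in sh1137 and 37.3 CPM in sh830. Col1a1 rose too, with 0.10 and 9.26 CPM in the controls and 0.77 and 53.3 CPM in sh1137 and sh830. Col1a2, Col3a1, Dcn and Pdgfra did not pass. These genes were higher in scrambled 2 and sh830, the libraries of low intron share, than in scrambled 1 and sh1137. Thy1 and Lum were near 0. B cell, T cell, mast cell and dendritic cell markers stayed at or under 3.02 CPM summed in every library, and the B cell factor gene Pax5 was at 0. Neutrophil and erythroid markers summed to at most 13.8 and 8.89 CPM and did not pass, and of the osteoclast markers Ctsk rose. Whether the fibroblast, osteoclast or macrophage genes that changed have a part in the changes below was not tested. In bulk RNA, fewer cells of a type and less RNA per cell cannot be told apart.

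Promoter sequences are shown for the members whose exon counts fell and whose start site was in the table of RefSeq promoters, and for Hmgcs1, the single member whose window holds the sterol regulatory element form searched. They were read from RefSeq (GRCm38.p6) and run 5′ to 3′ on the gene's strand over the 180 bases upstream of the start. Capitals mark CCAAT or its reverse complement, the NF-Y box; CACGTG, an E-box; and TCACNCCAC, a sterol regulatory element form. NF-Y is a factor known to act next to SREBP2 at sterol genes.
Pmvk, plus strand, chr3:89454361-89454540: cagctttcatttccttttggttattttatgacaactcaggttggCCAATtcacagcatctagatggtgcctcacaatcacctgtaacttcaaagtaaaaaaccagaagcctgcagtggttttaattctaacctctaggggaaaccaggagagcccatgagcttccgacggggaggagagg
Idi1, plus strand, chr13:8885426-8885605: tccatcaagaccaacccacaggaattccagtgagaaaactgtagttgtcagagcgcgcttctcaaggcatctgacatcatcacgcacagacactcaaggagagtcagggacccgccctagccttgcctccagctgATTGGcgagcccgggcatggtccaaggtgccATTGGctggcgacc
Lbr, minus strand, chr1:181842402-181842581: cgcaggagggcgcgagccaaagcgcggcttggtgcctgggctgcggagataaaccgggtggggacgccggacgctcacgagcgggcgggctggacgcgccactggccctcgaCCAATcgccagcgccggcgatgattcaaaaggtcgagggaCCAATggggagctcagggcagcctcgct
Nsdhl, plus strand, chrX:72918341-72918520: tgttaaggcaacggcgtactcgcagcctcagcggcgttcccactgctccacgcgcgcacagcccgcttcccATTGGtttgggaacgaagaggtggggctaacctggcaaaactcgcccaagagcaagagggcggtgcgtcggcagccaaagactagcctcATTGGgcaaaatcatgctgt
Hsd17b7, minus strand, chr1:169969206-169969385: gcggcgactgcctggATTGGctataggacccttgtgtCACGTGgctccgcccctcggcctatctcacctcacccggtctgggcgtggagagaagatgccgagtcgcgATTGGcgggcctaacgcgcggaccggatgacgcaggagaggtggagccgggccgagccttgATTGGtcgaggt
Hmgcs1, plus strand, chr13:119690171-119690350: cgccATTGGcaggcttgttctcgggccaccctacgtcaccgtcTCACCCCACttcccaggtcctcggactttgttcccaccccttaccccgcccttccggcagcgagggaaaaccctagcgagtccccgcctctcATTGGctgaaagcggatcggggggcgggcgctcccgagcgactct

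Windows of 250 bases before to 50 bases after the start were matched for 24 of the 28 genes. Fdps, Fdft1, Sqle and Stard4 had no entry. On either strand, CCAAT was in the windows of 20 of the 24 matched members (83.3%), against 41.1% of all genes in the table. CACGTG was in those of 6 members (25.0%), which are Hsd17b7, Dhdds, Insig1, Dhcr7, Sc5d and Scap, against 8.09% of all genes. TCACNCCAC was in the window of 1 member, Hmgcs1, where it starts 137 bases upstream, against 1.44% of all genes. Matches of different motifs did not overlap in these windows, and a match is a description of the letters, not of a bound site. All 5 members printed that fell hold at least 1 CCAAT box, and Hsd17b7 also holds the E-box.

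In exons, 7 of the 27 tested members fell and 0 rose. The 7 are Pmvk, Idi1, Fdps, Sqle, Lbr, Nsdhl and Hsd17b7, all of them enzymes. Across all 13884 genes tested, 7.79% fell and 6.06% rose. With counts scaled by library totals in place of TMM, 653 genes fell and 936 rose, against 1081 and 841 with TMM, and 3 members (Sqle, Lbr and Hsd17b7) fell. At an unadjusted p under 0.05, 14 members were lower and 1 was higher, beside 18.2% and 14.1% of all genes. The change was below 0 in 23 of 27 members and in 51.5% of all genes, and the median was -0.49 over the members and -0.01 over all genes. DESeq2 with the same library term found 13 members lower, the 7 above plus Srebf2, Insig1, Acat2, Fdft1, Lss and Cyp51, beside 7% of the genes it tested, and 0 members higher, beside 5.67%. With the group term alone edgeR passed 0 members, 4 of them at an unadjusted p under 0.05, and DESeq2 passed 0 members, 5 at an unadjusted p under 0.05. Both hairpin libraries lay below both scrambled libraries in 15 members, against 15.7% of all genes, and above both in 1, Insig2, against 15.7%.

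**Figure D1:**
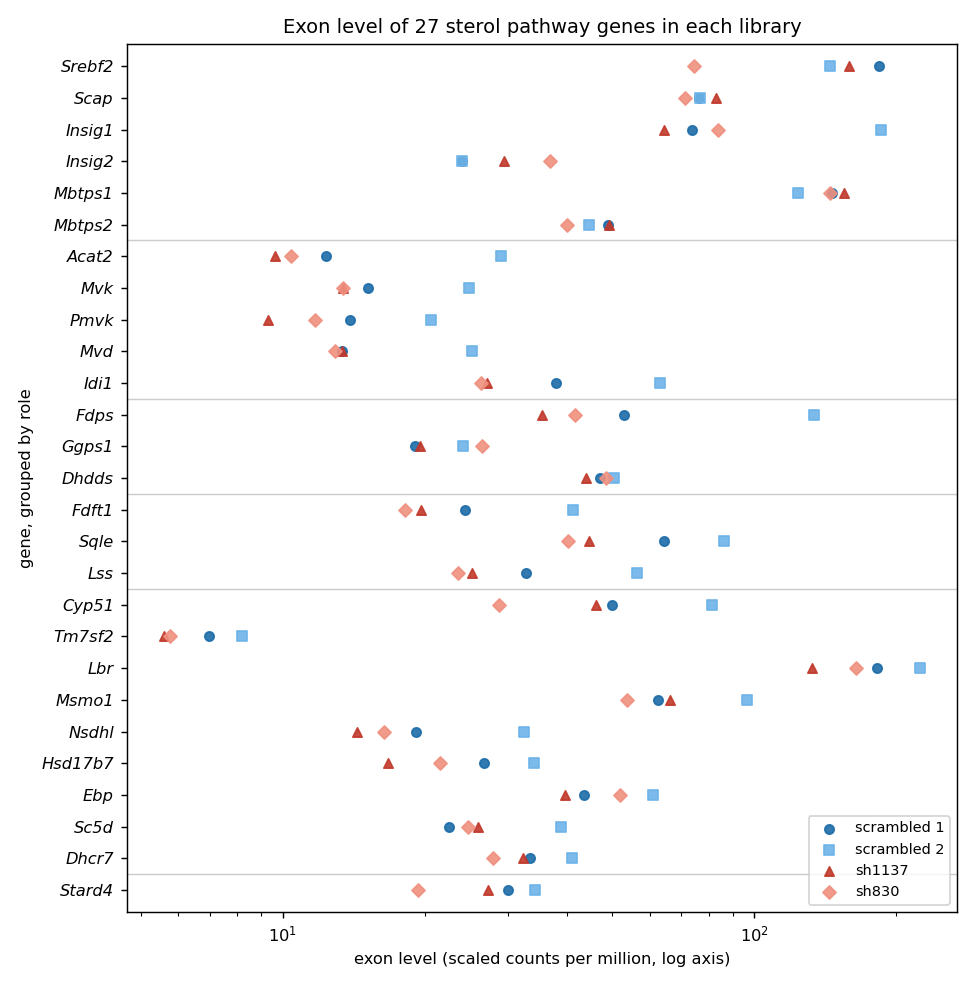
Exon level of the 27 tested genes in each library (horizontal axis, CPM on a log axis), 1 row per gene, with grey lines between the role classes in the order given in the text and 1 symbol per library. Scrambled 2, the light blue squares, is the highest library in 21 of the 27 genes.

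Much of this difference lay in 1 control library. Scrambled 2 was the highest of the 4 libraries in 21 of the 27 members, against 28.9% of all genes. The median log2 ratio of the members was -0.49 for scrambled 1 over scrambled 2. Between libraries of like intron share 19 of 27 members were lower in sh1137 than in scrambled 1, at a median of -0.18, and 24 were lower in sh830 than in scrambled 2, at a median of -0.82. Against the other control 22 members were lower in sh1137 than in scrambled 2 (-0.76) and 21 were lower in sh830 than in scrambled 1 (-0.24). All 4 hairpin to scrambled ratios thus had a negative median, and those against scrambled 1 were the smaller. In a fit without scrambled 2, which has the group term alone, the median was -0.27 with 18 members below 0. Without scrambled 1 the median was -0.70, without sh1137 -0.57 and without sh830 -0.50. These fits leave 1 library alone in a group and are given for the size of the change only. In each of these fits the library left alone in its group is assumed to vary like the other pair.

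**Figure D2:**
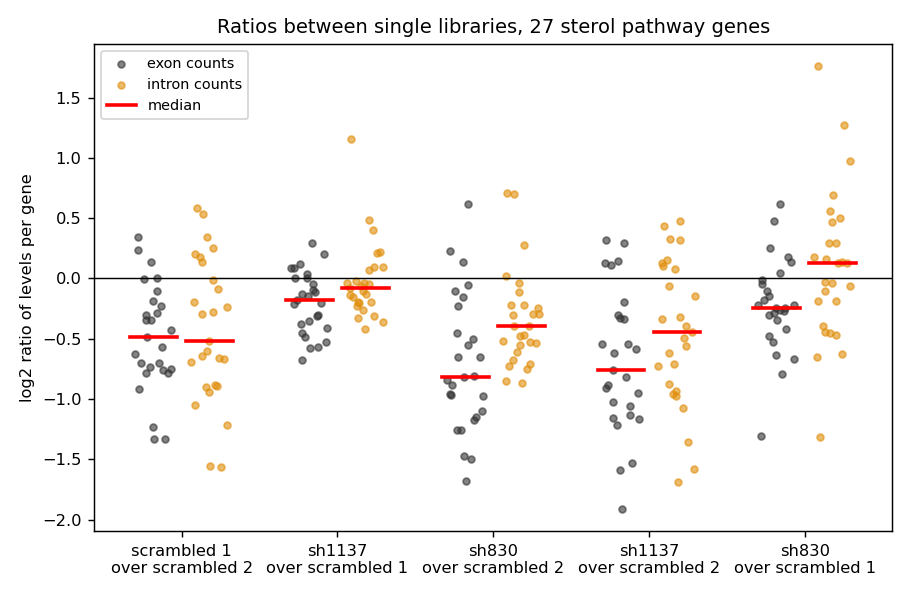
Log2 ratio of the level in 1 library over another (vertical axis; 0.1 CPM added to each level) for each of the 27 tested genes, in exon counts (dark points) and intron counts (orange points), with the median as a red bar. Exon medians run from -0.82 for sh830 over scrambled 2 to -0.18 for sh1137 over scrambled 1, and the ratio of the scrambled libraries has a median of -0.49.

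Srebf2 itself had 184 and 145 CPM in scrambled 1 and 2, 159 CPM in sh1137 and 74.4 CPM in sh830. Only sh830 stood apart, and the groups overlapped, since sh1137 lay between the scrambled libraries. The change was -0.59 ± 0.18 (adjusted p = 0.085) in edgeR and past the threshold in DESeq2 with the library term (adjusted p = 0.021). Its introns had 178 CPM in scrambled 1, 204 in scrambled 2, 162 in sh1137 and 113 in sh830, both below both controls, with a change of -0.48 ± 0.16 (adjusted p = 0.12). The gene spans chr15:81977699-82035390 in mm9, on the plus strand, and the microRNA gene Mir33 lies within it.

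The anchor genes Insig1 and Insig2 moved to opposite sides, and neither passed. Insig1 is itself a target of SREBP2, whose activity was not measured here. Insig1 had 73.9 and 186 CPM in scrambled 1 and 2 and 64.2 and 83.7 CPM in sh1137 and sh830. The high value of scrambled 2 set it apart from the 3 other libraries, and sh830 lay above scrambled 1, so the groups overlapped. The change was -0.68 ± 0.22 (adjusted p = 0.095; DESeq2 with the library term, 0.018). Insig2, which is not induced by SREBP2 in the same way, had 24.0 CPM in both scrambled libraries, 29.4 CPM in sh1137 and 36.8 CPM in sh830. Both hairpin libraries were higher than both controls, with a change of 0.46 ± 0.12 (adjusted p = 0.060), which passed the threshold only when no filter on low counts was used. Its introns lay the same way, with 30.4 and 30.6 CPM in the scrambled libraries against 42.5 and 37.1 CPM in sh1137 and sh830 (0.39 ± 0.12, adjusted p = 0.089). Per kilobase of exon the scrambled mean level was 49.0 CPM for Insig1 and 8.90 CPM for Insig2, and the hairpin means were 27.9 and 12.3 CPM.

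Scap and the proteases that act on the escorted SREBP2 did not pass the test. Scap had 71.1 to 82.7 CPM over the 4 libraries with a change of 0.005 ± 0.096. Mbtps1, the site-1 protease, had 124 to 155 CPM with a change of 0.15 ± 0.09. Mbtps2, the site-2 protease, had 40.0 to 49.2 CPM with a change of -0.07 ± 0.10, and it shares 1551 exon bases with Yy2 on the same strand, so part of its counts cannot be assigned. The 6 control genes had a median change of -0.03, and 0 of them were called. At an unadjusted p under 0.05 there were 3, beside 14.1% higher and 18.2% lower of all genes.

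The mevalonate steps had a median change of -0.70 over 5 tested genes. All 5 were below 0 and 2 of them fell, beside 51.5% and 7.79% of all genes. Acat2, which joins the first acetyl units, had 12.3 CPM in scrambled 1, 29.0 in scrambled 2, 9.61 in sh1137 and 10.4 in sh830, so that both hairpin libraries lay below both controls (-0.93 ± 0.28, adjusted p = 0.079). Hmgcs1, the next enzyme, is annotated in these files only on an unplaced part of chromosome 13 with 22 exon intervals, and its 1, 0, 2 and 1 exon counts give no level that can be compared with the other genes. Mvk, mevalonate kinase, had 15.2 CPM in scrambled 1, 24.8 in scrambled 2 and 13.4 in both hairpin libraries, with a change of -0.54 ± 0.20 (adjusted p = 0.12). Pmvk, which adds the next phosphate, fell from 13.9 and 20.6 CPM to 9.31 and 11.7 CPM, with a change of -0.70 ± 0.15 (adjusted p = 0.036) and no overlap between groups. Mvd, the decarboxylase that makes isopentenyl diphosphate, had 25.2 CPM in scrambled 2 and between 12.9 and 13.3 CPM in the 3 other libraries, so its exon change of -0.49 ± 0.25 (adjusted p = 0.22) rests on 1 control. Idi1, the isomerase that makes the second isoprene unit, fell from 38.0 and 63.1 CPM to 27.1 and 26.3 CPM. Its change was -0.88 ± 0.19 (adjusted p = 0.039), and the hairpin libraries were close to each other and below both controls. Pmvk spans chr3:89258463-89272931 and Idi1 chr13:8884852-8891642 in mm9, both on the plus strand.

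At the prenyl branch point, the 3 genes differed. Fdps, farnesyl diphosphate synthase, had the largest change of the 27 members in exons. It had 53.0 and 134 CPM in scrambled 1 and 2 and 35.4 and 41.7 CPM in sh1137 and sh830, means of 93.4 ± 57.1 and 38.6 ± 4.45 CPM (SD, n = 2 each). Its change was -1.14 ± 0.26 (adjusted p = 0.042). The controls themselves differed more than scrambled 1 differed from the hairpin libraries: log2 ratios were -1.33 for scrambled 1 over scrambled 2 and -0.58 for sh1137 over scrambled 1. Per kilobase of exon its level was 43.3 and 109 CPM in scrambled 1 and 2 and 29.0 and 34.1 CPM in sh1137 and sh830. It was above all other members in scrambled 2 and in the scrambled mean (76.4 CPM), and below Lbr in each of the 3 other libraries. Ggps1 and Dhdds, which draw isoprenoids away to geranylgeranyl diphosphate and to dolichol, had 19.0 to 26.5 and 44.0 to 50.5 CPM, with changes of 0.08 ± 0.11 and -0.08 ± 0.09 that did not pass. Fdps spans chr3:88897510-88905867 in mm9 on the minus strand.

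From squalene to lanosterol, the 3 genes had changes between -0.82 and -0.75, and 1 fell, beside 7.79% of all genes. In all 3 both hairpin libraries lay below both controls, against 15.7% of all genes, and all 3 were highest in scrambled 2. Sqle, squalene epoxidase, one of the flux-controlling oxygen-dependent steps, fell from 64.2 and 86.3 CPM to 44.6 and 40.3 CPM, with a change of -0.81 ± 0.15 (adjusted p = 0.028). Its means were 75.3 ± 15.6 and 42.5 ± 3.05 CPM (SD, n = 2 each), so the difference exceeded the spread within both groups. Fdft1, squalene synthase, had 24.3 CPM in scrambled 1, 41.2 in scrambled 2, 19.7 in sh1137 and 18.2 in sh830 (-0.75 ± 0.22, adjusted p = 0.073). It shares 771 exon bases with Ctsb on the opposite strand, which had 9822 to 12088 CPM. Whether counting used the strand is not given in the sources used here, so a few misassigned Ctsb reads could weigh on its level. Lss, lanosterol synthase, had 32.7 and 56.4 CPM against 25.2 and 23.5 CPM (-0.82 ± 0.22, adjusted p = 0.058). Sqle spans chr15:59146647-59162748 in mm9 on the plus strand.

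All 9 genes from lanosterol to cholesterol had changes below 0, with a median of -0.41, and 3 fell, beside 51.5% and 7.79% of all genes. All 9 were highest in scrambled 2. Hsd17b7, a 3-ketosteroid reductase, had the smallest p of the members, with 26.7 and 34.0 CPM in the controls against 16.7 and 21.6 CPM in sh1137 and sh830 (-0.67 ± 0.10, adjusted p = 0.019). Nsdhl, which removes the carbon that the methyl oxidase has oxidised, fell from 19.2 and 32.4 CPM to 14.4 and 16.4 CPM (-0.70 ± 0.17, adjusted p = 0.046). Lbr, the lamin B receptor, is an inner nuclear membrane protein that also reduces the sterol 14 double bond. It fell from 182 and 224 CPM to 133 and 164 CPM (-0.45 ± 0.08, adjusted p = 0.026). In these 3 genes, singled out because they fell, the groups did not overlap. Tm7sf2, which catalyses the same reduction as Lbr, was the tested member with the lowest level per kilobase, a scrambled mean of 2.85 CPM against 56.2 CPM for Lbr. Its change was -0.41 ± 0.20 (adjusted p = 0.21), and it shares 26 exon bases with Vps51. Cyp51, the lanosterol 14-demethylase, had 49.9 and 81.5 CPM in the scrambled libraries, 46.2 CPM in sh1137 and 28.8 CPM in sh830. Both hairpin libraries were lower, though sh1137 lay close to scrambled 1, and the change was -0.80 ± 0.32 (adjusted p = 0.14). The 4 other enzymes, Msmo1, Ebp, Sc5d and Dhcr7, had changes between -0.38 and -0.18, and their adjusted p lay between 0.20 and 0.49. Lbr spans chr1:183745446-183772532, Hsd17b7 chr1:171879668-171899336 on the minus strand and Nsdhl chrX:70163860-70203867 on the plus strand in mm9.

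Stard4, a small carrier that moves cholesterol between membranes and is the sole transport gene among the members, had 30.1 and 34.2 CPM in the scrambled libraries, 27.2 CPM in sh1137 and 19.4 CPM in sh830. Both hairpin libraries lay lower, and its change was -0.48 ± 0.18 (adjusted p = 0.12). Over all enzymes among the members the summed level was 780 and 1173 CPM in scrambled 1 and 2 and 641 and 668 CPM in sh1137 and sh830. The hairpin libraries were thus close to each other, below scrambled 1, and further below scrambled 2. Over all members it was 1363 and 1807 CPM against 1207 and 1139 CPM.

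**Figure D3:**
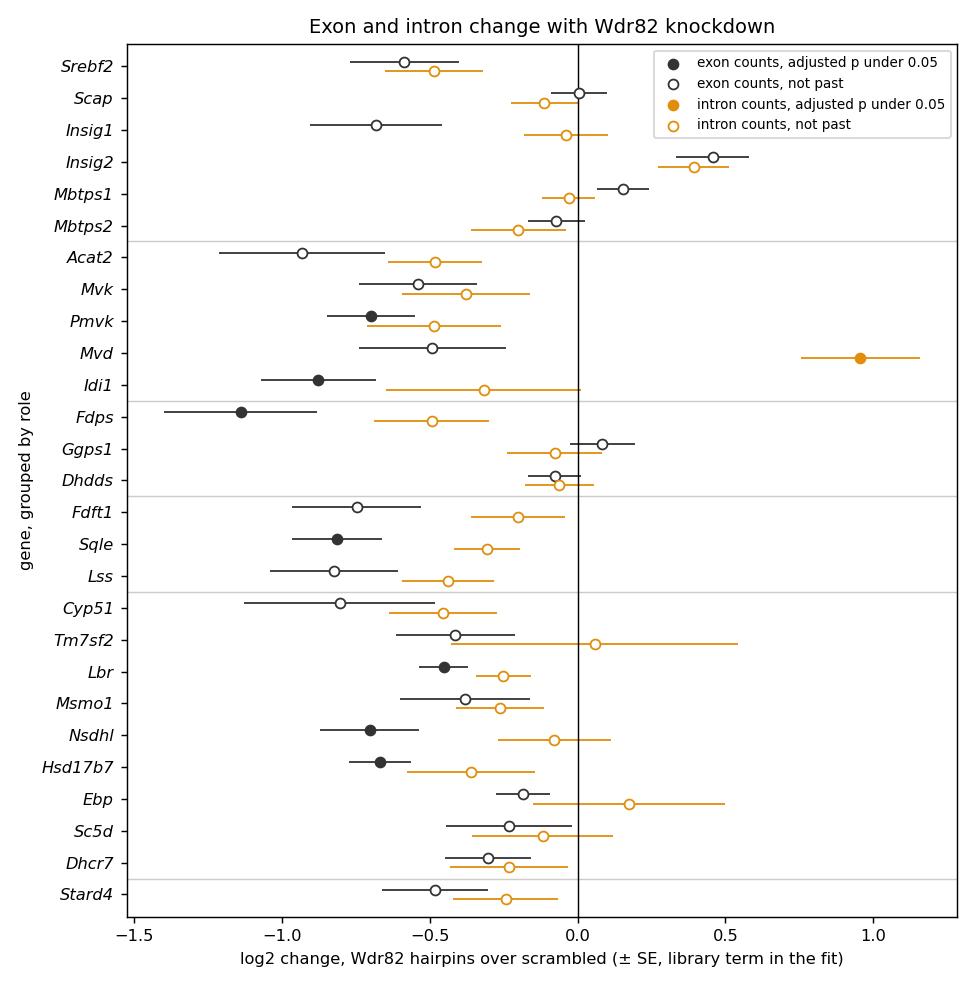
Log2 change of hairpin over scrambled libraries (horizontal axis, ± SE from the edgeR fit with the library term) for each of the 27 tested genes in exon counts (dark) and intron counts (orange), filled where the adjusted p is under 0.05. Filled dark points mark the 7 genes that fell in exons, and the single filled orange point is Mvd at 0.96.

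Intron counts, which come mostly from unspliced RNA, gave another picture. Of the 27 members 1 rose and 0 fell, while 5.97% of 12405 genes rose and 3.93% fell. At an unadjusted p under 0.05, 7 members were lower and 2 higher, beside 13.5% and 14.2% of all genes. DESeq2 with the library term passed 0 members in either direction, beside 2.67% lower and 4.74% higher of the genes it tested, with 1 member each way at an unadjusted p under 0.05. The change was below 0 in 23 of 27 members, against 51.3% of all genes, with a median of -0.23. Both hairpin libraries lay below both controls in 7 members, against 14.1% of all genes, and above both in 2, Insig2 and Mvd, against 17.1%. By single libraries, the intron median of the ratio to scrambled 2 was -0.52 for scrambled 1, -0.44 for sh1137 and -0.40 for sh830. The ratio to scrambled 1 had a median of -0.08 for sh1137 and of 0.13 for sh830, so the latter lay on the other side of 0. Without scrambled 2 the median of the change was -0.03, with 14 of 27 members below 0, and without scrambled 1 it was -0.48.

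Mvd was the member that rose in introns. Its introns held 126 counts in scrambled 1, 91 in scrambled 2, 289 in sh1137 and 166 in sh830, which is 5.32, 11.1, 11.99 and 18.2 CPM. Both hairpin libraries lay above both controls, although sh1137 was close to scrambled 2. The change was 0.96 ± 0.20 (adjusted p = 0.036), and it did not pass in DESeq2 with the library term (0.93, adjusted p = 0.080), with the group term alone or when any 1 library was left out. Mvd spans chr8:124957496-124967322 in mm9 on the minus strand. Its nearest annotated neighbours, looked up after its value was seen, are Cyba, 656 bases downstream and on the same strand, and Gm20735, 1846 bases upstream and on the same strand. Cyba fell in exons (-0.38, adjusted p = 0.045) and in introns (-0.44, adjusted p = 0.046). Gm20735 had 0.90 CPM in scrambled 1, 0.85 in scrambled 2, 1.49 in sh1137 and 1.90 in sh830, a change of 0.94 in exons that did not pass (adjusted p = 0.14).

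The difference between intron and exon change was tested as an interaction within each library. In 5 members the introns changed upward relative to the exons, and in 0 downward, beside 2.19% and 1.46% of 11772 genes. At an unadjusted p under 0.05 they were 9 and 0, beside 8.49% and 6.77%. The interaction was above 0 in 22 of 27 members, against 52.6% of all genes, with a median of 0.22 over the members and 0.01 over all genes. With 1 set of scaling factors for both kinds of interval the median of all genes moved to 0.13 and that of the members to 0.33. The member median was 0.09 without scrambled 2 and 0.39 without sh1137. Without the split of the libraries in the interaction 0 genes passed, and 1 member had an unadjusted p under 0.05. The fits that leave out 1 library lack the split too, so they cannot show whether the 5 calls rest on any single library.

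Among these 5, Mvd had the largest interaction, 1.41 ± 0.21 (adjusted p = 1.8e-08), with exons at -0.49 and introns at 0.96. Without the split of the libraries it was 1.42 ± 0.37 (edgeR, unadjusted p = 0.011) and did not pass. The small adjusted p-values of the interaction thus rest on a spread shared across genes and hold only with the split. Insig1 had 28.2 and 83.7 CPM in the introns of the scrambled libraries and 32.6 and 68.4 CPM in those of sh1137 and sh830. Scaled to intron totals, its introns were high in both libraries of low intron share, whose intron totals are the smaller, with a change of -0.04. Its intron counts themselves were 669 and 684 in scrambled 1 and 2 and 787 and 622 in sh1137 and sh830. Its exons were high in scrambled 2 alone. The interaction was 0.64 ± 0.12 (adjusted p = 6.0e-05). Fdps had 14.4 and 42.6 CPM in introns in the scrambled libraries and 13.1 and 23.3 CPM in sh1137 and sh830, where sh830 lay between the controls, and its interaction was 0.63 ± 0.15 (adjusted p = 0.0029). Sqle had 26.2 and 61.0 CPM against 20.4 and 51.5 CPM, where again both libraries of low intron share were the high ones on this scale. Its intron counts were 622 and 499 in scrambled 1 and 2 and 491 and 469 in sh1137 and sh830. The Sqle interaction was 0.50 ± 0.14 (adjusted p = 0.014). Without sh830 the Sqle value was -0.25, with the group term alone. Fdft1 had 40.7 and 64.2 CPM against 43.4 and 44.6 CPM, where the scrambled 2 library stood above the 3 others, and an interaction of 0.52 ± 0.15 (adjusted p = 0.017). In Insig1, Fdps, Sqle and Fdft1 the fitted exon change was thus more negative than the fitted intron change. Single libraries did not all lie below both controls. The introns of sh830 were above those of scrambled 1 in each of these genes, as were the exons of sh830 in Insig1.

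**Figure D4:**
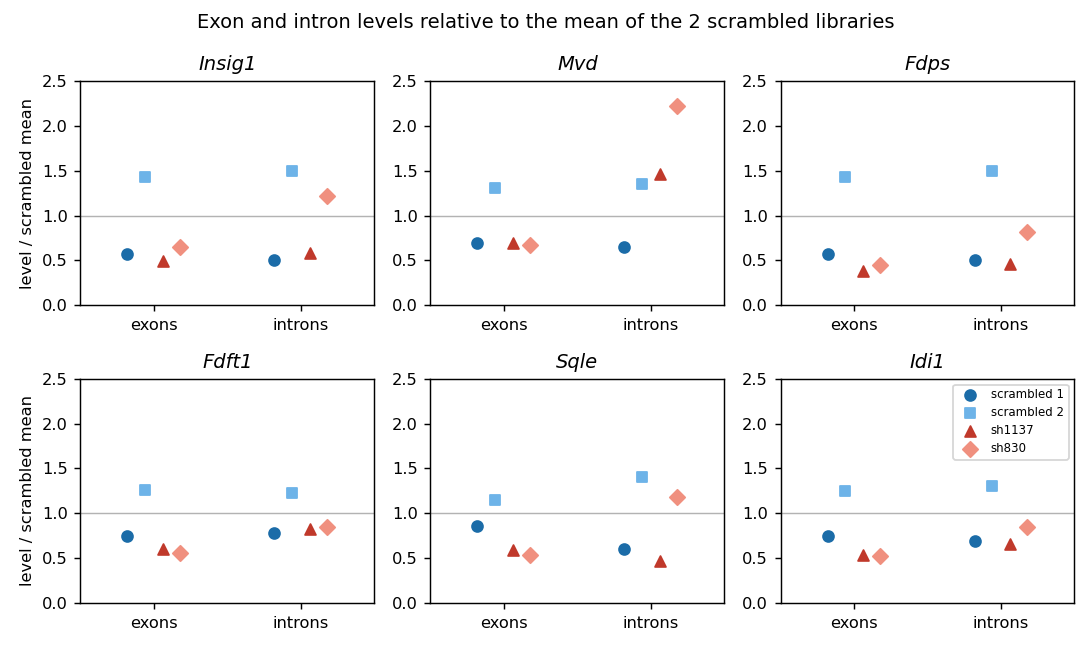
Exon and intron level of 6 genes in each library, divided by the mean of the 2 scrambled libraries (vertical axis; 1 is that mean). In Mvd the introns of both hairpin libraries lie above both controls while the exons do not, and in Idi1, a gene whose interaction did not pass (0.51, adjusted p = 0.29), the exons of both hairpin libraries lie below both controls.

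The deposited annotation also lists 1107 regions that the authors took from a SICER comparison of hairpin with vector libraries, so their direction is not independent. Of 1070 tested regions 584 rose (54.6%), with a median change of 1.37. Only 5 lie within 20 kb of a member, and 0 of these passed (adjusted p of the smallest, 0.15). The region at the start of Insig1, chr5:28389500-28397999 in mm9, lies almost wholly upstream of the gene. It held 68 counts in scrambled 1, 108 in scrambled 2, 307 in sh1137 and 126 in sh830. Both hairpin libraries were higher, sh1137 by far the most, and the change was 1.22 ± 0.55 (adjusted p = 0.18). The region at the end of Insig1 had a change of 0.31, that at the end of Msmo1 0.49, that next to Mbtps1 0.89 and that 11497 bases downstream of Mvd -0.24.

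The neighbouring pathways were read from lists chosen by name, with earlier results of these data known. Of 12 tested genes of fatty acid synthesis, which SREBP1 controls, 3 fell and 0 rose, beside 7.79% and 6.06% of all genes. Below 0 lay 11 of them, beside 51.5% of all genes, and the median was -0.43. Acss2, which makes acetyl-CoA from acetate and can be driven by either SREBP, changed by -1.06 (adjusted p = 0.023). Fasn, fatty acid synthase, fell by 0.92 (adjusted p = 0.023), from 289 CPM in scrambled 1 and 277 in scrambled 2 to 189 and 119 CPM in sh1137 and sh830. The scrambled libraries had nearly equal levels of Fasn, though 8 of the 12 genes of this list were highest in scrambled 2. Acaca fell by 0.46 (adjusted p = 0.029), and the introns of 3 of 11 tested genes fell, Fasn and Acaca among them, beside 3.93% of all genes. The gene of this list on the other side of 0 was Me1, malic enzyme, at 0.22 (adjusted p = 0.29). Relative to exons the introns changed upward in 1 of 11 tested genes, Elovl6 (interaction 0.67, adjusted p = 0.0012), and downward in 0. Of all genes 2.19% changed upward and 1.46% downward.

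Of 13 tested genes of cholesterol efflux and LXR, 2 rose and 1 fell, beside 6.06% and 7.79% of all genes, and the median was 0.16. Abca1, the cholesterol exporter, rose by 0.48 (adjusted p = 0.042), with 91.9 and 141 CPM in the controls against 145 and 175 CPM in sh1137 and sh830; the lower hairpin library lay just above the higher control. Mylip, a ubiquitin ligase that LXR induces, rose by 0.75 (adjusted p = 0.049). Ch25h, which makes an oxysterol that blocks the release of SREBP2, fell by 0.90 (adjusted p = 0.042), with 63.2 and 66.4 CPM in the controls against 25.4 and 47.5 CPM in sh1137 and sh830. Relative to exons the introns changed upward in Apoe (interaction 0.95, adjusted p = 8.8e-08) and downward in Abcg1 (-0.46, adjusted p = 0.0037). Each is 1 of 12 tested genes, beside 2.19% upward and 1.46% downward of all genes. An upward change was thus not particular to the sterol members.

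Of 15 tested genes that use prenyl lipids, 1 fell (6.67%), near the 7.79% of all genes. It was Pdss1, which builds the tail of ubiquinone (-0.74, adjusted p = 0.044), and its introns fell too (adjusted p = 0.045). The others did not pass, with a median of -0.02 over the list, and the smallest p on the upper side was that of the farnesyltransferase subunit Fntb (0.37, adjusted p = 0.13). Of 10 genes of sterol-regulated degradation in the endoplasmic reticulum, 0 passed in exons. At an unadjusted p under 0.05 there were 3, beside 14.1% higher and 18.2% lower of all genes. In exons the ubiquitin ligase Rnf145 was at 0.37 (adjusted p = 0.070) and Erlin1 at -0.26 (adjusted p = 0.11). The introns of Erlin1 fell (-0.65, adjusted p = 0.018). Relative to exons the introns changed downward in Rnf145 (-0.68, adjusted p = 1.3e-05) and Erlin1 (-0.39, adjusted p = 0.0497). These are 2 of 10 tested genes, beside 1.46% of all genes, and 0 changed upward, beside 2.19%. In exons the sterol members and the fatty acid list thus had medians of -0.49 and -0.43, while those of efflux, prenyl lipid use and degradation had medians between -0.04 and 0.16.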

How the data were processed

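The counts were measured in ribosomal RNA-depleted, strand-marked total RNA libraries, 2 per group. The authors deposited raw counts per gene over exons and, separately, over introns, not normalized, as their whole-number values and unequal totals show. Cuffdiff 2.1.1, Cufflinks 2.1.1, SICER, TopHat 1.3.1 and the mm9 build stand in the submitters' processing notes; the counting tool and its strand setting are not given in the sources used here. The deposited annotation also holds other data, the mm9 coordinates of genes and regions.

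One edgeR fit (4.0.16, in R 4.3.3) took the exon counts of both genes and regions, with filterByExpr, gene-based TMM factors, a group term and the library term, and Benjamini-Hochberg adjustment at 0.05. Intron counts were fitted likewise with their own factors, and intron against exon change as the interaction of group and interval type with a term for each library. The scripts were tested on simulated data. With 2 against 2 libraries the smallest p of an exact permutation test is 0.33, so none was run. The SE is the log2 change divided by the square root of the F statistic. Alternatives were the group term alone, a crossed split, DESeq2 1.42.0, other scalings, no filter and leaving out each library.

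The members, the lists and the library term were chosen with earlier results of these data known. By the naming rule, values in every library are given for members called in any fit, for the smallest exon p of a role class without calls and for Srebf2, Insig1 and Insig2; of other lists, the smallest p in each direction. Other named genes and the promoters of the members that fell were chosen after their values were seen. A promoter stretch was planned for members holding TCACNCCAC. Of 21761 genes, 21615 had a symbol. Depth is the count total of each library; levels of a few counts, as for Hmgcs1, were not compared.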

Additional observations from a re-analysis of the deposited data

Results flagged for a closer look

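In 3 measurements the hairpin libraries lay on opposite sides of both scrambled libraries. Each hairpin has 1 library, and sh1137 is of high and sh830 of low intron share. The difference between hairpins was thus not tested and cannot be told apart from that between kinds of library. The log2 ratio of sh1137 over sh830 was 0.22 for Scap exon counts, 0.30 for Mbtps2 exon counts and 0.54 for Dhdds intron counts. In each case sh1137 was above and sh830 below both scrambled libraries. Scrambled 1, of high intron share, was also above scrambled 2 for Mbtps2 exons (49.0 and 44.5 CPM) and Dhdds introns (54.8 and 46.1 CPM). For Scap exons the scrambled libraries were close (76.3 and 76.7 CPM).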

How the results depend on the processing

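With the group term alone, 0 genes passed in exons or introns (at an unadjusted p under 0.05, 437 exon changes were higher and 209 lower), and 0 members. With the crossed split 23 genes were higher and 1 lower in exons, 60 and 2 in introns, and 0 members passed. DESeq2 with the group term alone gave 153 and 23 in exons, 158 and 8 in introns, and 0 members. With the library term it gave 13 members and 931 genes lower in exons. In introns it gave 0 members higher and 318 genes lower. RLE factors gave 3 members and 855 genes lower in exons, and 0 members and 656 genes higher. In introns they gave 1 member (Srebf2) and 915 genes lower. Library totals gave 653 genes and 3 members lower in exons. Without a filter 8 members (Lss added) and 1254 genes were lower in exons, and 1 member and 925 genes were higher. In introns 3 members were lower (Srebf2, Fdps and Lss), and 1233 genes were higher and 1133 lower. For intron against exon change, 0 genes and 0 members passed without the split; 1 set of factors gave 418 and 47 genes and 6 members.

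Leaving out 1 library, with the group term alone, gave 13 to 190 genes higher and 1 to 28 lower in exons, 5 to 211 and 0 to 42 in introns, and 0 to 2 and 0 to 0 in intron against exon change. Members lower in exons numbered 0 to 1, and 0 passed in introns or in intron against exon change. The member median in exons ran from -0.70 without scrambled 1 to -0.27 without scrambled 2. Members below 0 ranged from 14 to 22 in introns and from 6 to 12 in intron against exon change, against 5. In intron against exon change Sqle ranged from -0.25 without sh830, a reversal, to 1.27 without sh1137. The 7 members that fell stayed below 0 in all 12 exon settings. The causes were not tested. No paired analysis was possible because the labels give the hairpin libraries no replicate number; the library term and the crossed split set scrambled beside hairpin libraries by measured intron share, not by a pairing in the labels. Low counts limit the values of the regions near members (31 to 307 per library) and of the Mvd introns (91 to 289).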
